A study of Drosophila melanogaster with 12 samples.

Results

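Transcripts of cell death regulators and caspases were followed in eye imaginal discs of Drosophila melanogaster, the larval epithelium from which the compound eye forms. The genes were rpr, hid, grim, skl, Dronc, Drice, Dcp-1, Diap1, Debcl and p53, and a probe set was taken for a gene where the array's annotation assigned it to that gene alone, under its current symbol or a synonym. Of these 10 genes, 6 had such a probe set (skl, grim, Dronc, Dcp-1, Debcl and p53), among 11983 genes with a named probe set on the array. The remaining 4, rpr, hid, Drice and Diap1, were not analysed here. The 6 genes had 7 probe sets, since p53 had 2, and 6 of them, 1 per gene, passed the filter on low values.

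In all, 12 arrays in 4 groups of 3 were compared. All larvae carried the w mutation, and discs were dissected from wandering larvae of the third instar with the antennal part removed. The Runt group (w; ro-Gal4/UAS-Run) misexpressed the wild-type transcription factor Runt in the cells where the rough (ro) driver is active. The Runt G163R group (w; ro-Gal4/UAS-Run[G163R]) expressed Runt with the G163R amino acid change under the same driver, so both groups carried a driver and a Runt transgene. In the sens experiment the mutants (w; sensDF2RES/sensDF2RES; sensE1/sensE1) carried 2 copies of each element and the controls (w; sensDF2RES/+; sensE1/+) 1 copy of each, so that no group of that experiment was free of them. Senseless (sens) is a zinc-finger transcription factor of the R8 photoreceptor. The labels do not state whether the replicates of a group are independent crosses, and the p-values therefore reflect the scatter among these 12 arrays, part of which could be technical.

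In flies, apoptosis is held back by the inhibitor protein Diap1, which binds caspases and keeps them inactive. The products of rpr, hid, grim and skl bind Diap1 and release the caspases, after which the initiator caspase Dronc, assembled with the adaptor Dark, cleaves the effector caspases Drice and Dcp-1. Debcl is a Bcl-2 family protein that can promote death, and p53 raises transcription of several of the antagonist genes after DNA damage. In the developing eye this machinery removes surplus cells between the ommatidia, mostly in the pupal retina, and caspase activity is also set by protein binding and cleavage that RNA arrays do not read.

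Dronc, Debcl and p53 transcripts were higher in sens mutant discs than in controls, each by about 1.5-fold, whereas no difference of Dcp-1 passed the test. Expression is given on the log2 scale of the deposited values, where a difference of 1 is a 2-fold change. A difference was called where the limma fit over 11470 probe sets gave a Benjamini-Hochberg adjusted p under 0.05. In the sens comparison 3 of the 6 genes were called, all higher in the mutants, while 16.9% of all probe sets were called and 11.6% were called higher. These calls comprised 1332 higher and 608 lower probe sets, a split that became 734 and 722 after a second quantile normalization and 553 and 1310 after array medians were subtracted, and Dronc, Debcl and p53 were called higher under both. In the Runt comparison none of the 6 was called, and 0.0436% of all probe sets were. An unadjusted p under 0.05 was reached there by 2 of the 6 (skl and Debcl) and by 6.36% of all probe sets. For whole discs, fewer cells that express a gene and less RNA per cell cannot be told apart.

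**Figure D1:**
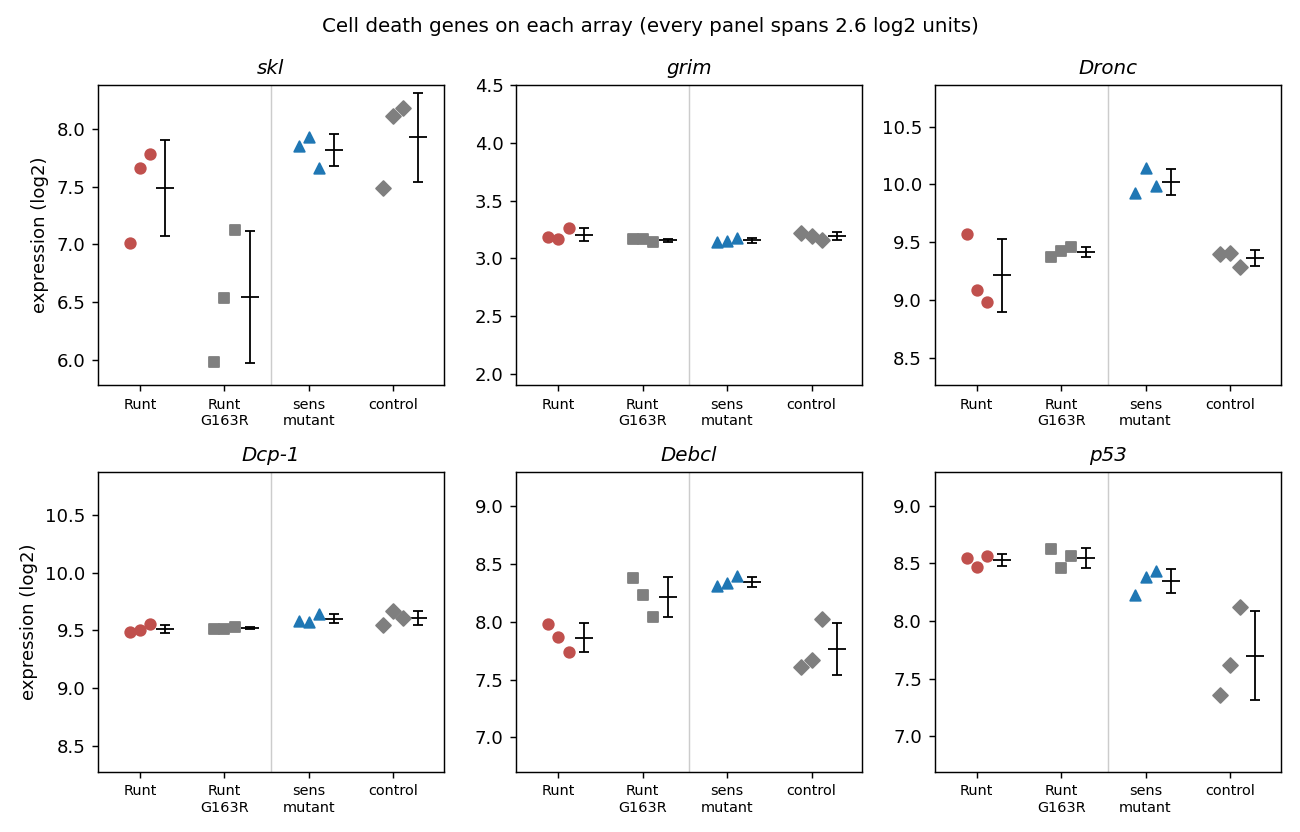
Expression (log2) of 6 cell death genes on each of the 12 arrays, with 3 arrays for each of the Runt, Runt G163R, sens mutant and control groups, and the group mean ± SD as a bar beside the points. Each panel covers an equal span of the axis, so the mutant arrays of Dronc stand above all others, and the points of Dcp-1 and grim lie nearly level.

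The antagonist gene skl (sickle, on chromosome arm 3L) had the widest spread of these 6 genes in the Runt, Runt G163R and sens mutant groups, and p53 had the widest in controls. It stood at 7.01, 7.66 and 7.78 in Runt discs and at 5.98, 6.53 and 7.12 in Runt G163R discs. The highest Runt G163R array lay above the lowest Runt array, so the groups overlapped. The difference was 0.94 (log2, SE 0.306, 95% interval 0.26 to 1.62) and was not called (adjusted p = 0.684). Weighting the arrays by their quality moved it past the threshold, at 0.97 (adjusted p = 0.0324), the single alternative of 21 that did so. With the replicate number as a block the SE of this difference was 0.191 (adjusted p = 0.491).

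In the sens experiment skl was at 7.85, 7.93 and 7.66 in mutants, against 7.49, 8.11 and 8.18 in controls. The mutant arrays fell within the range of the controls, and the difference of -0.11 (SE 0.306, 95% interval -0.79 to 0.57) did not pass the test (adjusted p = 0.831). By group mean the order was control (7.93), sens mutant (7.81), Runt (7.49) and Runt G163R (6.54). Each group overlapped its neighbour in that order, while all 3 Runt G163R arrays lay below every array of the sens experiment. Levels of the experiments were compared here, and for the genes below, by their values alone, with no test.

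The antagonist gene grim (3L) was not detected above the floor of the arrays, the dense band of low values in which most probe sets lie. Its 12 values ran from 3.14 to 3.27. The Runt arrays, at 3.17 to 3.27, lay just above the Runt G163R arrays at 3.14 to 3.17 without overlap, as 4.7% of probe sets did with Runt higher and 9.44% in either direction. The difference was 0.05 (SE 0.0378, adjusted p = 0.974) in the Runt comparison and -0.04 (SE 0.0378, adjusted p = 0.543) in the sens comparison. Values this close to the floor are compressed, so a change of grim would be understated.

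Dronc (3L), which encodes the initiator caspase, was higher in sens mutants than in controls. It was at 9.93, 10.14 and 9.99 in sens mutants, against 9.40, 9.40 and 9.29 in controls. The groups did not overlap, as was so for 38.0% of all probe sets in either direction and for 23.5% with the mutants higher. Dronc rose by 0.66 in mutants (log2, SE 0.13, 95% interval 0.37 to 0.95, adjusted p = 0.00784), a 1.58-fold change.

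Runt discs had 9.57, 9.08 and 8.98 for Dronc, and Runt G163R discs had 9.37, 9.42 and 9.46. Runt replicate 1 lay above all Runt G163R arrays and the other 2 Runt arrays below them, and the difference of -0.21 (SE 0.13, 95% interval -0.50 to 0.09) did not pass the test (adjusted p = 0.937). By group mean the order was sens mutant (10.02), Runt G163R (9.42), control (9.36) and Runt (9.21). The last 3 overlapped one another, and the lowest mutant array lay above every array of those groups.

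Dcp-1, an effector caspase gene on 2R, lay within a narrow band on the 12 arrays. Its values were 9.49, 9.50 and 9.55 in Runt discs and 9.51, 9.51 and 9.53 in Runt G163R discs. They were 9.58, 9.57 and 9.64 in sens mutants and 9.55, 9.66 and 9.61 in controls. Neither pair of groups separated. The difference was -0.01 in both comparisons (SE 0.0456 each), with adjusted p = 1 for Runt and 0.948 for sens. The 95% intervals were -0.11 to 0.10 in each comparison. They do not cover the choice of scaling, since the sens difference was -0.17 when array medians were subtracted. It was not called under any of 21 alternatives (adjusted p = 0.096 to 0.978).

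**Figure D2:**
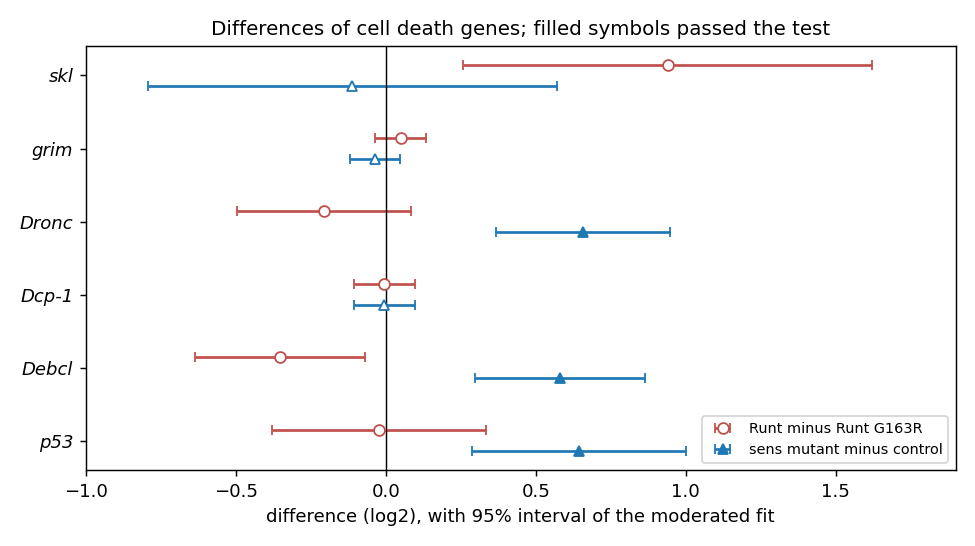
Difference (log2) of each gene for Runt minus Runt G163R (circles) and sens mutant minus control (triangles), with the 95% interval of the moderated fit, and filled symbols where the adjusted p was under 0.05. Filled triangles mark Dronc, Debcl and p53, at 0.66, 0.58 and 0.65, and no circle is filled.

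Debcl (2R), the pro-death Bcl-2 family gene, was at 8.31, 8.34 and 8.39 in sens mutants and at 7.61, 7.67 and 8.03 in controls. All mutant arrays lay above all control arrays, as was so for 23.5% of all probe sets. Debcl rose by 0.58 in mutants (SE 0.127, 95% interval 0.30 to 0.86, adjusted p = 0.0127), a 1.5-fold change.

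With Runt the values of Debcl lay the other way. Runt discs had 7.98, 7.87 and 7.74, and Runt G163R discs had 8.38, 8.24 and 8.04. The groups did not overlap, which was so with lower Runt values for 4.74% of all probe sets. The difference of -0.35 (SE 0.127, 95% interval -0.64 to -0.07) did not pass the test over all probe sets (adjusted p = 0.712). By group mean the order was sens mutant (8.35), Runt G163R (8.22), Runt (7.87) and control (7.77), with overlap between sens mutant and Runt G163R arrays and between Runt and control arrays.

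The p53 gene (3R), which encodes the DNA damage transcription factor, was at 8.23, 8.38 and 8.43 in sens mutants and at 7.36, 7.62 and 8.12 in controls. The mutant arrays lay above the controls without overlap, as was so for 23.5% of all probe sets. The controls spread over a wider range. p53 rose by 0.65 in mutants (SE 0.16, 95% interval 0.29 to 1.00, adjusted p = 0.0219), a 1.56-fold change. This call was lost without control replicate 1, where the difference was 0.48 (adjusted p = 0.0554), and without control replicate 2, at 0.60 (adjusted p = 0.0672). It was also lost without sens mutant replicate 2, at 0.63 (adjusted p = 0.0613), without sens mutant replicate 3, at 0.60 (adjusted p = 0.073), and on the 6 arrays of this experiment alone, at 0.65 (adjusted p = 0.0984).

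The control array with the lowest p53 value, replicate 1, stood apart more widely. It was the lowest of the 3 controls for 47.2% of all probe sets and for 4 of the 6 genes (skl, Dcp-1, Debcl and p53), it had the lowest array weight of the 12 (0.263), and it had the most fat body RNA. The summed level of 4 fat body markers (log2 of the sum of unlogged values) was 7.12, 11.71 and 5.85 in sens mutant replicates 1, 2 and 3, and 13.71, 9.43 and 6.05 in control replicates 1, 2 and 3. No marker of that list was called, and the part of fat body RNA in these results was not tested. Without control replicate 1 the difference of Debcl was 0.50 (adjusted p = 0.0433) and that of Dronc 0.68 (adjusted p = 0.022), and both were called.

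In the Runt experiment p53 was at 8.55, 8.47 and 8.57 in Runt discs and at 8.63, 8.46 and 8.56 in Runt G163R discs. These arrays overlapped, and the difference was -0.02 (SE 0.16, 95% interval -0.38 to 0.34, adjusted p = 1). By group mean the order was Runt G163R (8.55), Runt (8.53), sens mutant (8.35) and control (7.70), so that the controls were the group farthest from the rest. The other probe set of p53 lay in the floor at 2.14 to 2.21 on all arrays, did not pass the filter and was not tested.

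The test of whether a gene moved differently in the experiments called Dronc, whose sens change exceeded its Runt change by 0.86 (SE 0.184, adjusted p = 0.0182), and Debcl, by 0.93 (SE 0.18, adjusted p = 0.012). It called 10.1% of all probe sets. The call of Dronc was lost when array medians were subtracted (0.68, adjusted p = 0.0554) and with the replicate number as a block (adjusted p = 0.053). For p53 the value was 0.67 (adjusted p = 0.0908) and for skl -1.05 (adjusted p = 0.151), and neither passed the test.

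**Figure D3:**
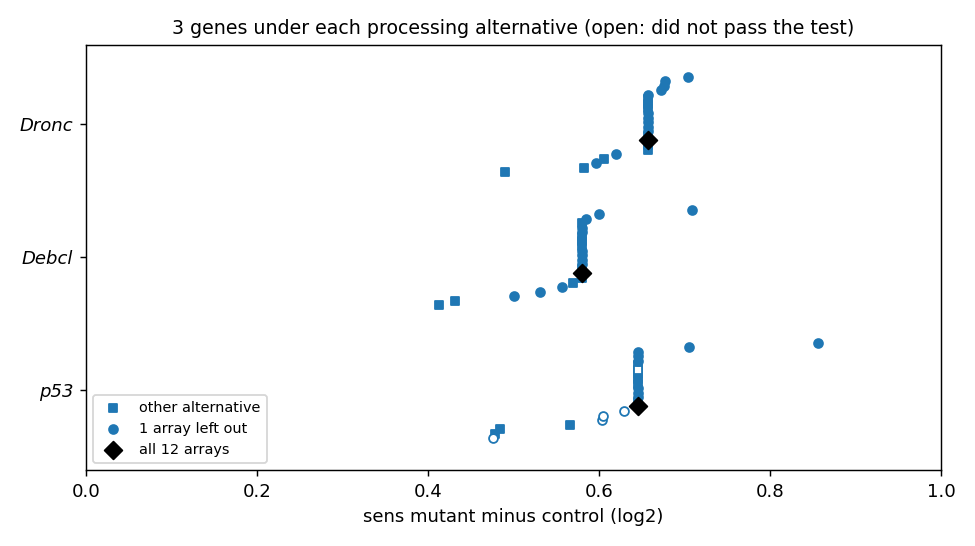
Difference between sens mutants and controls (log2) for Dronc, Debcl and p53 with all 12 arrays (diamond), with 1 array left out (circles) and under the other processing alternatives (squares), spread vertically in order of size. Open symbols did not pass the test, and all 5 of them belong to p53, while Dronc ranged from 0.49 to 0.70 and Debcl from 0.41 to 0.71.

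Several limits of the discs and genotypes stood beside these differences. The sens probe set read more signal in the libraries labelled sens mutant, at 10.78, 10.36 and 10.61 against 8.96, 9.30 and 9.61 in controls, so it does not check the genotype, while boss, the R8 ligand gene, was in the floor in mutants (2.27 to 2.59) and at 6.38 to 6.51 in controls. Of 13 eye disc markers tested, Pph13 alone stayed under a log2 value of 5 on all arrays. In the sens comparison 2 of the 13 were called higher (ey, 0.50, and sens, 1.29) and 3 lower (gl, -0.47, sev, -1.07, and boss, -4.04). Among all probe sets 11.6% were called higher. Of the markers of brain and neuroblasts, 6 of 8 fell in mutants (mira, insc, ase, wor, Ddc and pros), where 5.3% of all probe sets were called lower. The summed level of the 8 was 10.20 to 10.43 in mutants and 11.24 to 11.41 in controls. Ddc differed most, by -2.74, and dpn (-0.34) and brat (-0.18) were not called. Of those of antenna and leg discs, 4 of 8 fell (Dll, al, ap and salm), with a sum of 11.69 to 11.73 in mutants and 11.90 to 12.25 in controls. The highest levels in mutants were those of danr (10.56) and dan (9.97), which differed by 0.07 and 0.31 and were not called. The difference of salm was -1.54. Which cells of the discs expressed the genes of these lists was not tested. For haemocyte markers the summed level was 8.93 to 9.87 in mutants and 9.45 to 9.94 in controls, and none of 8 was called. Still, 3 (vkg, Col4a1 and NimC1) had an unadjusted p under 0.05, where 30.9% of all probe sets did. The haemocyte sum was mostly crq, and the median difference of the 8 was -0.69, with -1.69 for vkg, -1.42 for NimC1 and -1.25 for Col4a1. For glial markers the summed level was 12.51 to 12.63 in mutants and 12.34 to 12.42 in controls, with 1 of 6 higher and 1 lower. Of the 2 peripodial and cuticle genes tested 1 fell, Lcp65Af (-4.44), where 5.3% of all probe sets were called lower. The other, upd1, stayed under a log2 value of 5 on all arrays and was not called (-0.08, adjusted p = 0.648). Their sum was 3.74 to 3.89 in mutants and 7.09 to 7.73 in controls, and its change came from Lcp65Af. The part of these marker lists in the changes of Dronc, Debcl and p53 was not tested. In the Runt comparison none of 49 markers was called, and 4 had an unadjusted p under 0.05, where 6.36% of all probe sets did.

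Dronc and p53 lie on chromosome 3, as does sens, where calls in the sens comparison were most frequent among the large arms. Of probe sets of genes on 3L, 23.3% were called (15.4% higher), and on 3R 21% (14.6% higher), against 17.4% on 2R (12.1% higher), where Debcl lies. Among the 5 tested genes nearest Dronc on each side, a set chosen after the values of Dronc were seen, 2 rose and 1 fell in mutants. nudE rose by 0.53 (SE 0.134, adjusted p = 0.0228), CG32055 rose by 7.05 (SE 0.0682, adjusted p = 2.65e-12) from the floor, and dpr10 fell by 1.16 (SE 0.31, adjusted p = 0.0302). Around p53, 2 of 10 neighbours rose and 3 fell, with a difference of -1.96 for both lmd and klg. Around Debcl none of 10 was called, with differences of -0.15 to 1.00 and the smallest adjusted p at 0.0572 (CG9410). The genotype as written places sensDF2RES in the position of chromosome 2, with 2 copies in mutants and 1 in controls. Chromosome 2, with Debcl, was therefore not free of a genotype difference either. Effects of the genotype and of the chromosomes that carry it cannot be told apart in this design.

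Genes with the most similar profile over the 12 arrays were found by Pearson correlation, as a description over arrays that share group and experiment. Dronc was most like Panx (r = 0.953), lft (r = 0.952) and Cyt-b5 (r = 0.944), all of which were called higher in sens mutants, by 0.59, 0.35 and 0.35. p53 was most like Trmt112 (r = 0.978), the autophagy gene Atg5 (r = 0.972) and Naxd (r = 0.971), and Debcl like Pdp (r = 0.948), Rrp40 (r = 0.947) and CG2200 (r = 0.93). These 6 genes were also called higher in mutants, with differences between 0.40 for Pdp and 1.59 for Naxd. skl was most like CG8405 (r = 0.94), Sxl (r = 0.935) and Ten-a (r = 0.933), and Dcp-1 like Rim (r = 0.946), Pglym78 (r = 0.943) and Cyp6a23 (r = 0.939), none of them called in the sens comparison. For grim, which lay in the floor, the nearest profiles were also of low genes, TTLL4B, CG30457 and CG18265, with r between 0.872 and 0.885. Among the 6 cell death genes themselves the closest profiles were skl and Dcp-1 (r = 0.664) and Dronc and Debcl (r = 0.659).

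Other genes of the pathway were read from 9 lists with 87 genes, of which 68 were tested. In the sens comparison 19 of the 68 were called, 14 higher and 5 lower, or 27.9%, against 16.9% of all probe sets. The share depended on the processing, at 17.6% against 16.2% after array medians were subtracted, 17.6% against 12.7% after a second quantile normalization and 11.8% against 12.3% on the 6 arrays of the experiment alone. The direction split also depended on the scaling, with 5 higher and 7 lower both after a second quantile normalization and after array medians were subtracted. With the 60th percentile filter, which drops more low probe sets, it was 30.8% of 65 pathway genes against 26.5% of all. The median difference of the 68 genes was 0.10, against 0.03 over all probe sets of the main filter and 0.135 over those of the 60th percentile filter. In the Runt comparison none of the 68 was called and 3 had an unadjusted p under 0.05 (Shark, Atg12 and egr), where 6.36% of all probe sets did. Those 3 differences were -0.24, -0.34 and 0.35.

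**Figure D4:**
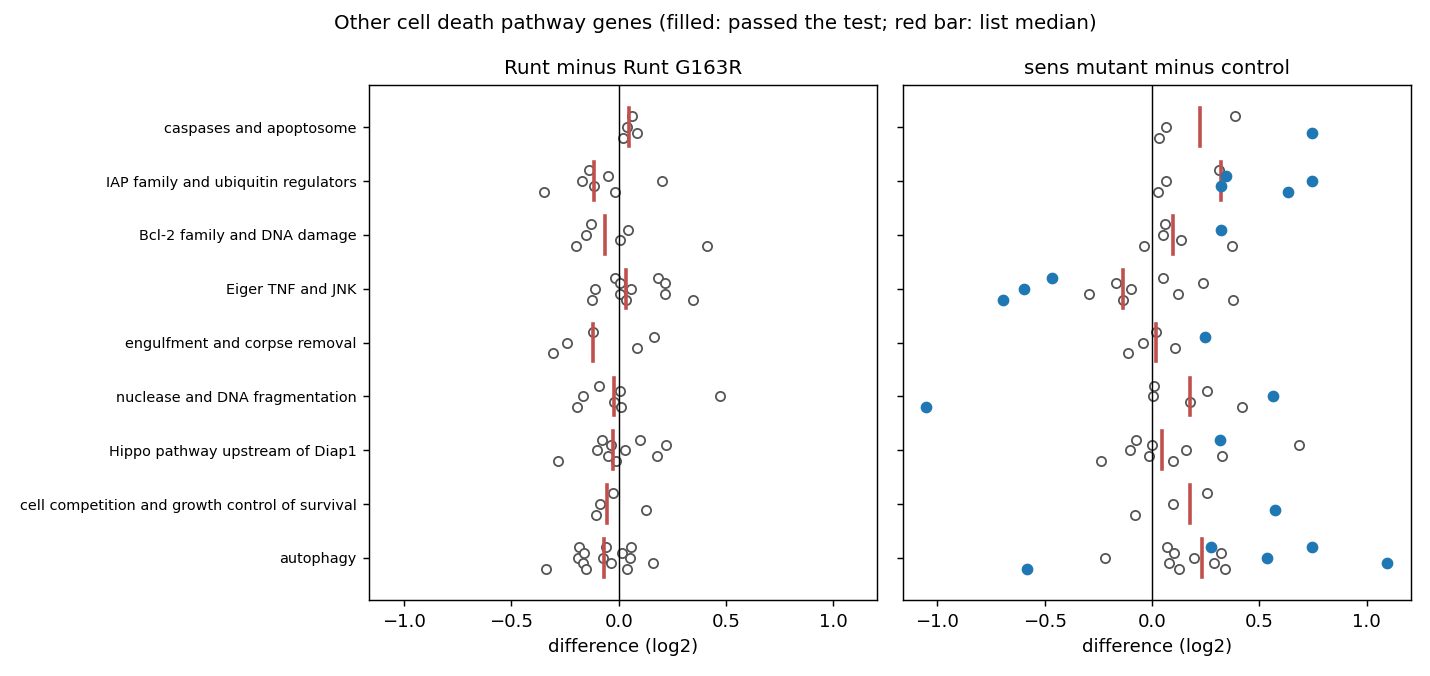
Difference (log2) of 68 other cell death pathway genes, by list, for Runt minus Runt G163R (left) and sens mutant minus control (right), with filled points for genes whose adjusted p was under 0.05 and a red bar at each list's median. All filled points are in the sens comparison, with 4 of 7 genes of the list of IAP family and ubiquitin regulators to the right of 0 and 3 of 11 genes of the Eiger and JNK list to the left.

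The 3 pathway genes with an unadjusted p under 0.05 in the Runt comparison were of different lists. Atg12, a ubiquitin-like protein of autophagosome formation, was at 8.47, 8.30 and 8.27 in Runt discs, against 8.76, 8.56 and 8.73 in Runt G163R discs, without overlap (adjusted p = 0.545). Shark was at 8.50, 8.42 and 8.50 in Runt discs, against 8.73, 8.77 and 8.65 in Runt G163R discs, also without overlap (adjusted p = 0.659). Runt arrays lay lower without overlap for 4.74% of all probe sets. The TNF ligand gene egr was at 9.34, 9.45 and 8.92 in Runt discs, against 8.79, 8.86 and 9.02 in Runt G163R discs, and 1 Runt array lay among the Runt G163R arrays (adjusted p = 0.744). The other probe set of egr differed by 0.09 (SE 0.252) and was not called. With array weights Shark (adjusted p = 0.0183) and egr (adjusted p = 0.0191) were called.

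Of the caspase and apoptosome genes 1 of 4 rose in mutants, where 11.6% of all probe sets were called higher. This was Strica, a caspase with a long prodomain, at 5.11, 6.07 and 5.63 in mutants and 5.04, 4.92 and 4.62 in controls (difference 0.74, SE 0.219, adjusted p = 0.0445). Its call was lost in 17 of 20 alternatives, and its level was low, with a mean of 4.85 over the 12 arrays. Dredd, the caspase of the Imd immune pathway, had a difference of 0.38 that the test did not call (adjusted p = 0.128). Dark, the adaptor that activates Dronc, was at 7.99, 8.11 and 8.10 in mutants and 7.93, 8.08 and 8.01 in controls, with overlap. Its difference was 0.06 (SE 0.0869, adjusted p = 0.639) and turned to -0.09 and -0.10 under the 2 scalings. The other probe set of Dark, with a lower mean, differed by 0.48 (SE 0.264) and was not called (adjusted p = 0.248).

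Of the IAP (inhibitor of apoptosis) family and ubiquitin regulators 4 of 7 rose and none fell, where 11.6% of all probe sets were called higher. Under each of the 2 scalings named above 1 of 7 was higher. Of all 11470 probe sets, 734 were higher after the second quantile normalization and 553 after median subtraction. Det (Deterin), the fly survivin-like inhibitor, was at 9.63, 9.73 and 9.79 in mutants and 8.81, 9.16 and 9.27 in controls. It rose by 0.63 (SE 0.117, adjusted p = 0.00581) and was called in 20 of 20 alternatives. Diap2, the sister inhibitor of Diap1, rose by 0.32 (SE 0.0756, adjusted p = 0.0178), a call lost in 4 of 20. HtrA2, a mitochondrial protease that can cleave Diap1, rose by 0.74 (adjusted p = 0.0244, lost in 7 of 20), and morgue, which lowers Diap1 protein, by 0.34 (adjusted p = 0.0391, lost in 13 of 20). The called members thus comprised 2 IAP family genes and 2 genes whose products act against Diap1, and morgue was named after its value was seen.

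Of the Bcl-2 and DNA damage genes 1 of 6 rose, where 11.6% of all probe sets were called higher. This was lok, which encodes the checkpoint kinase Chk2 that acts upstream of p53, by 0.32 (SE 0.0798, adjusted p = 0.0217), a call lost in 7 of 20 alternatives, both scalings among them. Buffy, the other Bcl-2 family gene, differed by 0.37 (SE 0.348, adjusted p = 0.491).

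Of the Eiger and JNK genes 3 of 11 fell and none rose, where 5.3% of all probe sets were called lower. Under each of the 2 scalings 4 were lower and none higher, where 6.29% of all probe sets were called lower after the second quantile normalization and 11.4% after median subtraction. The TNF receptor gene wgn (wengen) was at 9.81, 9.74 and 9.68 in mutants and 10.36, 10.42 and 10.25 in controls. It fell by 0.60 (SE 0.113, adjusted p = 0.00648) and was called in 20 of 20 alternatives. In the Runt experiment wgn lay at 7.91 to 8.37 in Runt discs and at 7.81 to 8.05 in Runt G163R discs, below all arrays of the sens experiment. Jra, the Jun homologue, fell by 0.46 (adjusted p = 0.0133, lost in 1 of 20) and kay, the Fos homologue, by 0.69 (adjusted p = 0.0399, lost in 9 of 20). The brightest probe set of egr, the TNF ligand gene, had a difference of 0.38 that was not called (adjusted p = 0.0914), while its other probe set rose by 1.11 (SE 0.252, adjusted p = 0.015). The JNK phosphatase and target gene puc differed by -0.14 (SE 0.264, adjusted p = 0.747).

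Of the DNA fragmentation genes 1 of 7 rose and 1 fell, beside shares of 11.6% higher and 5.3% lower over the 11470 probe sets. The list had these counts under both scalings as well. Drep4, the nuclease related to the mammalian caspase-activated DNase, was at 8.17, 8.28 and 8.28 in mutants and 7.52, 7.81 and 7.71 in controls. It rose by 0.56 (SE 0.115, adjusted p = 0.00925) and was called in 20 of 20 alternatives. Drep3, of the same CIDE-N family, fell by 1.05 (SE 0.315, adjusted p = 0.0469), a call lost in 12 of 20. Mutant arrays read 5.87, 5.70 and 5.38 and control arrays 6.38, 6.87 and 6.86.

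The counts of the lists that follow stand beside 11.6% of all probe sets called higher in mutants. In the engulfment list 1 of 5 rose, Shark, the kinase of the Draper pathway, by 0.25 (adjusted p = 0.0477, lost in 17 of 20), and drpr itself differed by -0.11 (adjusted p = 0.427). In the Hippo list, whose pathway controls Diap1 transcription through Yorkie, 1 of 10 rose, mats, by 0.31 (adjusted p = 0.0417, lost in 15 of 20). yki differed by -0.01 (SE 0.0554, adjusted p = 0.886). In the list of cell competition and survival 1 of 4 rose, the stress-response gene scyl (scylla), at 12.46, 12.24 and 12.23 in mutants and 11.50, 11.92 and 11.79 in controls (0.57, SE 0.11, adjusted p = 0.00708, called in 20 of 20). The brightest probe set of fwe, the gene for the Flower fitness protein, differed by -0.08 (adjusted p = 0.526), and its other probe sets were called in opposite directions, at -1.21 and 0.36, so no direction is given.

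In the autophagy list 4 of 14 rose and 1 fell, with 2 of 14 higher and 2 lower under each of the 2 scalings. Atg1, the kinase that starts autophagosome formation, fell by 0.58 (SE 0.111, adjusted p = 0.00665, called in 20 of 20), whereas its partner Atg13 rose by 0.54 (SE 0.106, adjusted p = 0.00771, called in 19 of 20). Atg5, of the ubiquitin-like conjugation system, was at 7.73, 7.62 and 7.86 in mutants and 5.93, 6.78 and 7.21 in controls. It rose by 1.10 (SE 0.265, adjusted p = 0.0194, lost in 3 of 20). Control replicate 1 was the lowest control for Atg5 and for 13 of the 19 called pathway genes in all.

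Across the pathway, 5 of the 19 called genes were called under all 20 alternatives applied to these lists. Of these Det, Drep4 and scyl were higher and wgn and Atg1 lower in sens mutants. The share of all called probe sets that kept their call under these alternatives was not counted, so no comparison is drawn.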

How the data were processed

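RNA of whole eye discs was hybridised to 1-colour arrays after Trizol extraction and biotin labelling of 6 ug total RNA, per the labels' protocols. Deposited values ran from 1.63 to 15.4 with array medians of 2.59 to 2.67, and were read as log2 expression for that reason. MAS5, GCRMA and affy are named in the submitters' processing notes without role or version, and how background and normalization were handled is not given in the sources used here. All sample columns were used.

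Of 18952 probe sets, 183 are controls, 13647 have 1 gene, 402 several and 4720 none named here. Current symbols came from RefSeq (Release 6 plus ISO1 MT), matched by gene identifier for 13544 probe sets and used for names, arms and neighbours only. The filter kept 11470 probe sets, those that exceeded an array's 40th percentile on 3 or more arrays of 12. limma 3.58.1 (R 4.3.3; lmFit, eBayes with intensity trend) estimated a mean for each of 4 groups from the 12 arrays, two-sided, with Benjamini-Hochberg adjustment over all kept probe sets. Each gene was represented by the kept probe set with the highest mean. No correction beyond that of the deposited values was applied, so values near the floor are compressed, and the number of arrays limits the precision. The fit was tested on simulated data.

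Alternatives changed the filter, scaling, variance trend, weighting of arrays and probe set rule, fitted each experiment alone, added a replicate block and left out each array. The genes, pathway lists and marker lists were chosen with earlier results of these data known. Named genes are the 10 members, up to 2 members of each list with the smallest p in each comparison, sens, boss and the 3 most similar profiles per member, and others were named after their values were seen. Replicate numbers were not used to pair the samples in the main fit. The correlation of deviations of same-numbered arrays ran from -0.42 to 0.256, and 3 such pairs per experiment are too few to exclude a pairing.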

Additional observations from a re-analysis of the deposited data

Results flagged for a closer look

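The change of Dronc in the sens comparison exceeded its change in the Runt comparison by 0.86 (log2, SE 0.184, adjusted p = 0.0182 by limma), since all 3 sens mutant arrays lay above all controls while 2 of 3 Runt arrays lay below all Runt G163R arrays. Mutants lay above controls without overlap for 23.5% of all probe sets.

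For Debcl this excess was 0.93 (log2, SE 0.18, adjusted p = 0.012 by limma). All sens mutant arrays lay above all controls, as was so for 23.5% of all probe sets. All Runt arrays lay below all Runt G163R arrays, as was so for 4.74%. The call was kept under all 20 alternatives run, with values of 0.75 to 1.06.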

How the results depend on the processing

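In the sens comparison Dronc and Debcl kept their direction and call under all 21 alternatives (0.49 to 0.70 and 0.41 to 0.71), and p53 kept its direction under 21 and its call under 16 (0.48 to 0.86). Direction could change only under the second quantile normalization, median subtraction, array weights and omission of a sens mutant or control array. The other alternatives left a sens difference as it was and altered only its SE or adjusted p. The summary over probe sets changed no member, since each had 1 kept probe set. The number of probe sets called in the Runt comparison was 5, and 0 with the 60th percentile filter, 466 with array weights and 1 on the 6 arrays alone. Array weights also gave 1 member gene (skl) and 2 pathway genes in that comparison and 2669 probe sets in the difference between comparisons, against 1157. Leaving out 1 array gave 4 to 119 probe sets in the Runt comparison (119 without Runt replicate 3), 1220 to 2009 in the sens comparison (1940 with all arrays) and 702 to 1327 in the difference. The 19 pathway genes called in the sens comparison became 11 without a filter, 12 after a second quantile normalization, 12 after subtraction of array medians and 8 on the 6 arrays alone. With 1 array left out they were 8 to 17, with 11, 10 and 8 without sens mutant replicates 1, 2 and 3 and 12 without control replicate 1 or 2. Subtracting array medians moved the median sens difference of all probe sets from 0.0306 to -0.137.

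Applying the alternatives to the single pathway genes and to the members' differences between comparisons was chosen after seeing the data. With the replicate block 1 probe set was called in the Runt comparison and 12 pathway genes in the sens comparison, and Dronc lost its call in the difference between comparisons (0.86, adjusted p = 0.053). The block changed no call of a member within a comparison.

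Among the member genes, the differences that changed sign were all uncalled. For Dcp-1 they were 0.0071 (medians subtracted, Runt), and -0.025 to 0.00807 (Runt), -0.0348 to 0.0229 (sens) and -0.0295 to 0.0282 (difference between comparisons) with 1 array left out. For p53 in the Runt comparison they were 0.00955 (array weights) and -0.0691 to 0.0165 with 1 array left out. For grim after a second quantile normalization they were 0.0395 (sens) and 0.00287 (difference between comparisons), and for skl in the sens comparison -0.331 to 0.0156 with 1 array left out. The cause was not tested.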
